A study of Caenorhabditis elegans with 2 samples.

Results

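The 6 vitellogenin genes of Caenorhabditis elegans, vit-1 to vit-6, were examined for binding of DVE-1 among the 19973 protein-coding genes of the 6 nuclear chromosomes. They were taken by name from the gene annotation, and all 6 were found. Each gene was given a window from 2000 bp upstream of its annotated 5′ end to its 3′ end, and the windows measured 7128 to 7303 bp. Binding had been measured by chromatin immunoprecipitation and sequencing with an anti-GFP antibody, in 1 group with 2 biological replicates from separate biosamples. Both replicates were whole hermaphrodites at the L4 stage, the last larval stage, of the transgenic strain OP398, whose genotype is given as unc-119(tm4063) III with the transgene wgIs398, and whose DVE-1 carries GFP and FLAG at its C-terminus. The labels record the age as unknown, and no source used here names the promoter that drives the transgene. There was no second strain, stage or treatment, so values are compared between genes, between replicates and with all protein-coding genes, and no test of a condition was possible. In whole animals, binding in few cells and weaker binding in many cells cannot be told apart.

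Vitellogenins are lipid-carrying yolk proteins related to the apolipoprotein B family. In the worm they are made in the intestine of the adult hermaphrodite, released into the body cavity and taken up by oocytes through the receptor RME-2. Their genes are switched on around the passage from L4 to adult, and GATA factors of the intestine, ELT-2 above all, together with the homeodomain proteins UNC-62 and CEH-60, are known to act in this. DVE-1 is itself a homeodomain protein, related to the SATB factors and best known from the response to misfolded proteins in mitochondria. The genes vit-1 to vit-5 encode the large yolk polypeptides, and vit-6 encodes a precursor that is cleaved into a pair of smaller ones.

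The genes vit-1 to vit-5 lie on chromosome X and vit-6 on chromosome IV, all on the ce11 assembly. The 250 bases before each 5′ end are printed because the strongest regions of the family lie there. The copies also differ more there than in their coding sequences. Sequences are from the RefSeq genome WBcel235, 5′ to 3′ on the strand of the gene. Capitals mark, on either strand, the 2 heptamers TGTCAAT and CTGATAA, known from work on the vit-2 promoter as vitellogenin promoter elements 1 and 2, and the hexamer TGATAA, an extended GATA site that is part of the second heptamer.
vit-1, chrX:7727639-7727888, plus strand: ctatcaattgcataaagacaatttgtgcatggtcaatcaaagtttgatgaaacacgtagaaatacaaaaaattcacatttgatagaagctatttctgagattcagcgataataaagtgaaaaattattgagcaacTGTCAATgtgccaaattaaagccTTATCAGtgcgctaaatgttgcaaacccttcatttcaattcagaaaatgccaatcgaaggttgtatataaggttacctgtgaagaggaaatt
vit-2, chrX:5100792-5101041, plus strand: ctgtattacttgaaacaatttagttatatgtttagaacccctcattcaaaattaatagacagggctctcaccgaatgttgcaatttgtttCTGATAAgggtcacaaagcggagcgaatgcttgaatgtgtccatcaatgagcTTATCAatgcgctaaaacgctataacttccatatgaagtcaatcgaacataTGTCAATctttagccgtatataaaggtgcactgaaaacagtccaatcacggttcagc
vit-3, chrX:3572550-3572799, minus strand: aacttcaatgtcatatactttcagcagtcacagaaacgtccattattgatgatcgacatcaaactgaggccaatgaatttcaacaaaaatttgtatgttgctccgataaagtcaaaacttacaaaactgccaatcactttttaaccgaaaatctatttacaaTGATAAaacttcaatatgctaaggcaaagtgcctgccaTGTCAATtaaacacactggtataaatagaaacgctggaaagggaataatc
vit-4, chrX:3563966-3564215, minus strand: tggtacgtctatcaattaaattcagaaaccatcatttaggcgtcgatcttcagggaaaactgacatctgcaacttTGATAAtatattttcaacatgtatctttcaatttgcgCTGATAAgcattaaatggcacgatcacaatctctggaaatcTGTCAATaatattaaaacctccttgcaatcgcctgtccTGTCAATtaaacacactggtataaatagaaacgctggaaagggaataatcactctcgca
vit-5, chrX:3403221-3403470, plus strand: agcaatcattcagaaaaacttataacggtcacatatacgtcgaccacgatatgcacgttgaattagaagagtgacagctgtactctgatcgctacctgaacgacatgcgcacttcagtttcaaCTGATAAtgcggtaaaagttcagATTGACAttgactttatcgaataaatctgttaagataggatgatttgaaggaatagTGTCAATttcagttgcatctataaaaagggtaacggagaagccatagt
vit-6, chrIV:8260907-8261156, plus strand: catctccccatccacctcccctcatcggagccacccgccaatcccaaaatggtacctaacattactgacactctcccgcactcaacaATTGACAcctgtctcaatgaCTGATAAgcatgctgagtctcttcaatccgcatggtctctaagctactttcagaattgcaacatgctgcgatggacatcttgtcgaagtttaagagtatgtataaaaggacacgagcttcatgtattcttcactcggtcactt

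An optimal list, the authors' set of reproducible peaks, held 7262 peaks on ce11, and a relaxed list of 30000 regions existed for the pooled replicates and for each replicate. By its deposited name the pooled relaxed list holds peaks and background, so a region in it need not be a peak. Each region carries a deposited signal against a control. Its scale differs from list to list, so it was used for ranks within a list, or as a ratio to the replicate's median over the optimal peaks (29.4 in replicate 1 and 37.8 in replicate 2). The optimal peaks were the 7262 strongest pooled regions, the last of them with a signal of 34.73 and the next region outside with 34.72. Because the lists hold no read counts, library depth is unknown.

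An optimal summit fell in the window of 2 of the 6 genes, vit-2 and vit-6, with 1 summit each. Among all protein-coding genes 28.9% had an optimal summit in the same window, and among the 2731 on chromosome X 34% had. A count of 2 of 6 is close to these background shares. The windows of the 6 were longer than the median window of all genes, 4027 bp. In the pooled relaxed list 5 of the 6 windows held a summit, against 47.6% of all genes, and vit-5 was the gene without any. The list of replicate 1 held a summit in the same 5 windows (49.8% of all genes), and that of replicate 2 in 4, without vit-1 (49.4% of all genes). Between 500 bp upstream and 200 bp downstream of the 5′ end, 16.2% of all genes had an optimal summit and 31.1% a pooled one. In the family, vit-2 and vit-6 had an optimal summit there, and vit-2, vit-3, vit-4 and vit-6 a pooled one.

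**Figure D1:**
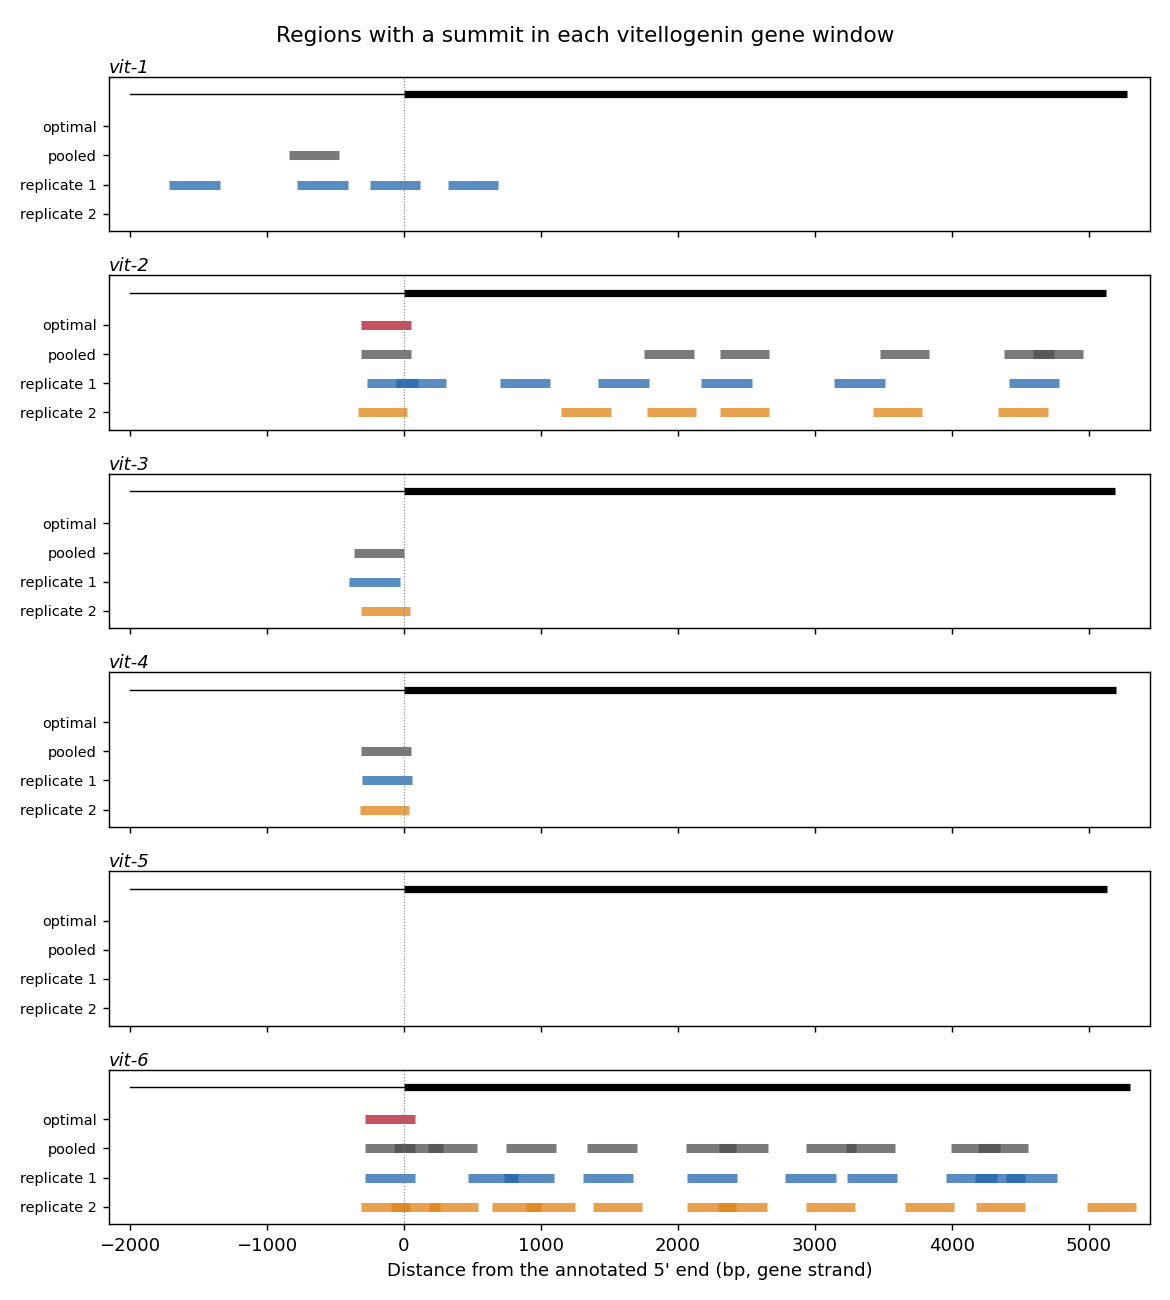
Regions whose summit lies in the window of each vitellogenin gene, in the optimal, pooled and 2 replicate lists, by distance from the annotated 5′ end in bp on the gene's strand; the thick black bar is the gene and the thin line its upstream 2000 bp. Optimal peaks stand only at vit-2 and vit-6, just before the 5′ end, and the window of vit-5 is empty in all 4 lists.

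The strongest region of the family was the promoter peak of vit-2 (WBGene00006926, 5101042 to 5106169 on the plus strand). It spanned 5100733 to 5101096 on chromosome X, with the summit 127 bp upstream. Its pooled signal was 81.5, rank 2509, above the optimal list's median of 64.7. Replicate 1 gave a signal of 46.4 at rank 1669, and replicate 2 a signal of 42.7 at rank 3040, with the summits 72 bp apart. In relative terms the values were 1.58 and 1.13, a mean of 1.35 ± 0.32 times the median optimal peak (SD, n = 2). Both replicates placed vit-2 above their median optimal peak.

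The peak of vit-6 (WBGene00006930, 8261157 to 8266459 on the plus strand) was weaker and rested more on 1 replicate. It spanned 8260877 to 8261240 on chromosome IV with the summit 98 bp before the 5′ end. Its pooled signal was 41.1, rank 6204, which is 1.18 times the lowest signal in the optimal list. Replicate 1 gave 25.8 at rank 4435, while replicate 2 gave 15.6 at rank 9612, outside its own 7262 strongest regions. The relative values were 0.875 and 0.414, with a mean of 0.64 ± 0.33 (SD, n = 2). With replicate 2 alone, vit-2 was the 1 gene of the family with a summit among the 7262 strongest regions, and with replicate 1 alone vit-2 and vit-6 were (29.2% and 28.7% of all genes had one). The vit-6 summit also lies inside K07H8.16, a 144 bp noncoding RNA gene on the opposite strand (8261007 to 8261150), so the peak cannot be assigned to vit-6 alone.

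The adjacent copies vit-3 and vit-4 had weak regions at the same place, before the 5′ end, below the optimal threshold. At vit-4 (WBGene00006928, 3558769 to 3563965 on the minus strand) the pooled region had a signal of 20.2 at rank 11465, with its summit 128 bp upstream. Replicate 1 gave 7.78 at rank 15176 and replicate 2 gave 11.1 at rank 12894, and the relative signal was 0.28 ± 0.02 (SD, n = 2). At vit-3 (WBGene00006927, 3567355 to 3572549 on the minus strand) the pooled signal was 16.3 at rank 13616, 181 bp upstream. Replicate 1 gave 7.8 at rank 15144 and replicate 2 gave 6.59 at rank 19247, for a relative signal of 0.22 ± 0.06 (SD, n = 2). Both copies thus lay below vit-6 in each replicate, and their values overlapped each other. The deposited pooled -log10 q value was 2.87 at vit-4 and 1.97 at vit-3, where replicate 2 gave 1.04. Each region also touches a noncoding RNA gene on the plus strand, T27A10.8 at vit-3 and F59D8.3 at vit-4, with the summit outside it, and that of vit-3 reaches the 3′ end of T27A10.5.

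At vit-1 (WBGene00006925, 7727889 to 7733168 on the plus strand) the replicates did not share a region. The pooled list held 1, with a signal of 17.6 at rank 12865 and the summit 653 bp upstream. Replicate 1 had 4 summits in the window, the strongest 64 bp upstream with a signal of 12 at rank 10229, and replicate 2 had none. No mean over replicates can be given there.

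The gene vit-5 (WBGene00006929, 3403471 to 3408603 on the plus strand) had 0 summits in the optimal, pooled and both replicate lists, from 2000 bp upstream to its 3′ end. Its nearest optimal summits were 32027 bp upstream and 63786 bp downstream of the gene. A region weaker than the lowest listed signal, 5.23 in the pooled list, would not appear, so the lists do not show whether a weaker signal was there.

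**Figure D2:**
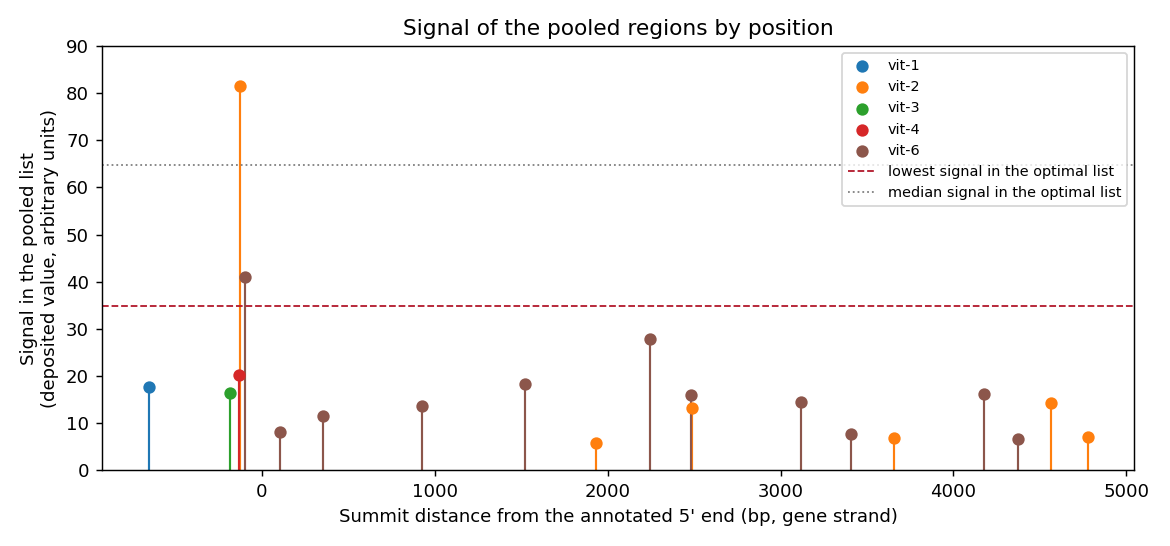
Signal of the 20 pooled regions in the 6 windows, as deposited in arbitrary units, by distance of the summit from the annotated 5′ end in bp; the dashed line is the lowest signal of the optimal list, 34.7, and the dotted line its median, 64.7. The promoter regions of vit-2 (81.5) and vit-6 (41.1) lie above the dashed line and the other 18 below it.

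The 20 pooled regions were spread unevenly over the family, with 11 at vit-6, 6 at vit-2, and 1 each at vit-1, vit-3 and vit-4. Inside the gene, between the annotated ends, vit-6 held 10 pooled summits and vit-2 held 5, while the other 4 genes held 0. Several of them were near the floor of this list, which includes background. Their deposited -log10 q values ran from 0.404 to 1.56 inside vit-2 and from 0.473 to 4.27 inside vit-6. The median over all protein-coding genes, which have a median length of 2027 bp against 5128 to 5303 bp in this family, was also 0. Only 1.4% of all genes held at least 10 pooled summits between their ends, and 4.77% at least 5. Per length, vit-6 had 1.89 pooled summits per kb and vit-2 had 0.975, densities that 1.07% and 9.11% of all genes reached or passed. All 10 summits inside vit-6 lay in coding exons, and the coding sequence makes up 4953 of its 5303 bp.

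In the pooled list, the regions inside vit-2 and vit-6 were weaker than the promoter peak of the same gene. The strongest of them was at vit-6, 2245 bp after the 5′ end, with a pooled signal of 27.9 at rank 8762, which is 0.804 times the lowest optimal signal and above the upstream regions of vit-1, vit-3 and vit-4. Replicate 1 gave 15.8 at rank 7794 and replicate 2 gave 14.8 at rank 10097, with summits 1 bp apart and a relative signal of 0.46 ± 0.10 (SD, n = 2). The replicates were closer together there than at the vit-6 promoter, and replicate 2 ranked that site only slightly lower than the promoter. The strongest vit-6 region of replicate 2 lay inside the gene, in a coding exon 5168 bp after the 5′ end, with a signal of 19.3 at rank 7866, and neither the pooled list nor replicate 1 had a summit there. Of the 10 regions inside vit-6, the 3 at 1523, 2245 and 4373 bp had a summit within 100 bp in both replicates. The region at 4373 bp was weak, with a pooled signal of 6.63 at rank 26343 and a -log10 q value of 0.473. At vit-2 the region 4563 bp after the 5′ end differed between replicates, with a signal of 17.2 at rank 7158 in replicate 1 and of 4.15 at rank 25900 in replicate 2. Over the whole family, 8 of the 20 pooled regions were matched within 100 bp in both replicates, 11 in 1 and 1 in neither. The regions matched in both were the promoter regions of vit-2, vit-3, vit-4 and vit-6 and 4 of the 15 inside genes. The same share was not counted over all pooled regions, so these counts have no background to be read against.

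**Figure D3:**
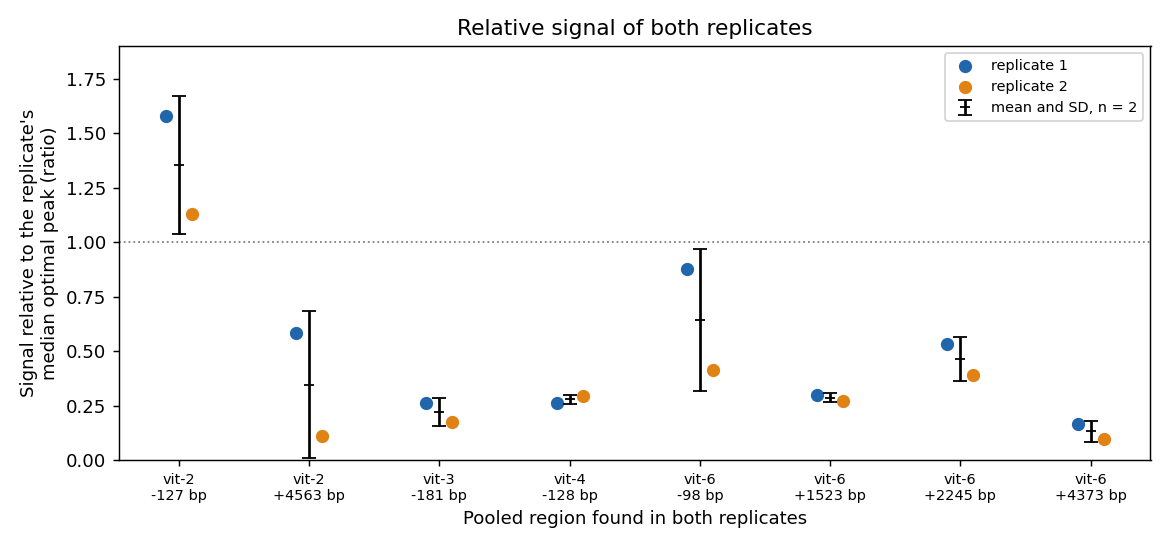
Signal relative to the replicate's median optimal peak (a ratio, dotted line at 1) for the 8 pooled regions with a summit within 100 bp in both replicates, with each replicate as a point and the mean and SD (n = 2) as bars. The vit-2 promoter lies above 1 in both replicates (1.58 and 1.13), and the vit-6 promoter ranges from 0.414 to 0.875.

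Other optimal peaks stood near the windows. The strongest of those examined was 2086 bp upstream of vit-1 (chromosome X, 7725665 to 7725899), just outside the window, with a pooled signal of 195 at rank 278. Replicate 1 gave 92.0 at rank 261 and replicate 2 gave 101 at rank 398, for a relative signal of 2.9 ± 0.32 (SD, n = 2). Its summit was 176 bp upstream of spp-14, a gene of the saposin-like family, and inside the noncoding RNA gene K09F5.9. Upstream of vit-3 the nearest optimal summit was 3910 bp away, at rank 669 and 147 bp before ckc-1. Downstream of vit-2 an optimal summit at rank 5070 lay 159 bp past the 3′ end, inside the convergent gene C42D8.9. Downstream of vit-4 the nearest optimal summit was 1048 bp past the 3′ end, at rank 6861.

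The copies are similar enough that short reads cannot always be placed. The coding sequences of vit-3 and vit-4 were 99% identical, those of vit-3 and vit-5 97.7% and those of vit-4 and vit-5 97.8%. The pair vit-1 and vit-2 shared 93.8%, whereas vit-6 was 53.9% to 54.4% identical to the others. The longest run of identical bases shared by the windows of vit-3 and vit-4 was 1326 bp. Upstream the copies were less alike, with 60.7% identity over 250 bp between vit-3 and vit-4. For every other pair it was 44.7% to 53.2%, a range that includes all pairs with vit-6. The upstream stretches of vit-3 and vit-4 still shared a run of 50 identical bases near the 5′ end. It begins with TGTCAAT, at -50 in vit-3 and at -59 in vit-4. The longest upstream run was 8 to 12 bases in the other pairs.

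Of all stretches of 50 bases inside the gene, 21.2% occurred once in the genome at vit-4, 25.6% at vit-3 and 51.4% at vit-5. The share was 87% at vit-2, 87.4% at vit-1 and 100% at vit-6. In the 500 bp upstream it was 97.8% at vit-4, 99.8% at vit-3 and 100% at the other 4 genes, so nearly all promoter sequence was unique by this measure. At the vit-4 promoter region 81.1% of the stretches within 150 bp of the summit were unique, and at the other promoter regions 100%. Inside the gene, the pooled list held regions at vit-6 and vit-2, which were among the 3 genes with the highest shares. It held none at vit-1, whose share was close to that of vit-2, nor at vit-3, vit-4 and vit-5. Replicate 1 had 1 summit inside vit-1. No source used here gives the read length or the handling of reads with several placements, and the part of repeated sequence in the absence of regions inside vit-3, vit-4 and vit-5 was not tested.

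**Figure D4:**
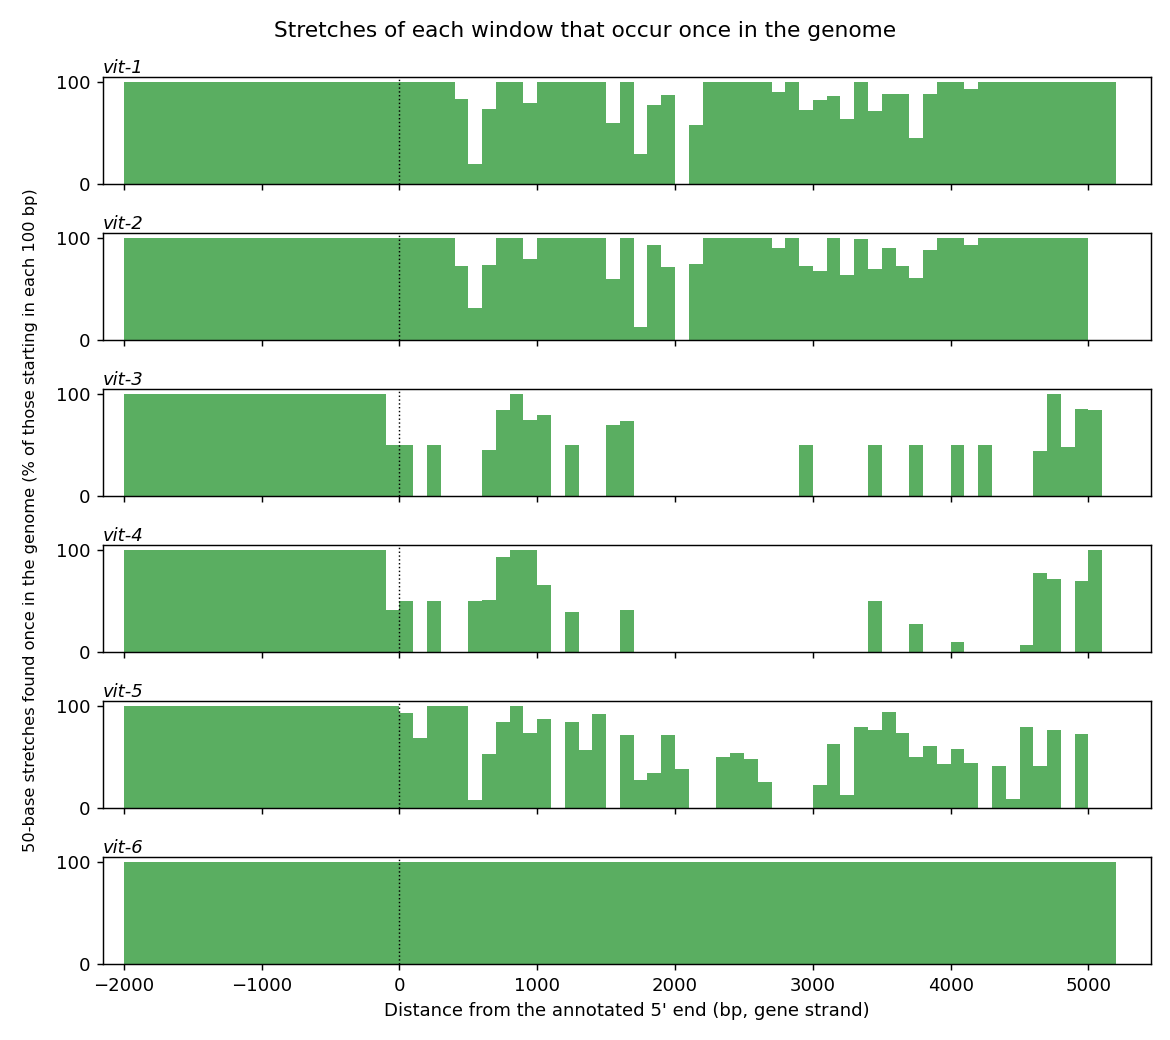
Share of 50-base stretches that occur once in the genome, in percent of those starting in each 100 bp, along the 6 windows by distance from the annotated 5′ end in bp. Upstream sequence is unique in almost all places, the genes vit-3, vit-4 and vit-5 are repeated over much of their length, and vit-6 is unique throughout.

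The printed promoters were searched on both strands, from 250 bp before to 50 bp after the 5′ end, and so were those of all protein-coding genes. TGTCAAT was present in all 6, against 5.77% of all promoters, and CTGATAA in 5, with vit-3 as the exception, against 8.15%. TGATAA, which every CTGATAA contains, was present in all 6, against 30.2%. These heptamers were described from this family, so their presence is no finding. Under the peak of vit-2 lay CTGATAA at -160 to -154, TGATAA on the other strand at -108 to -103 and TGTCAAT at -57 to -51, counted from the 5′ end. Under that of vit-6 lay TGTCAAT on the other strand at -163 to -157 and CTGATAA at -143 to -137. The promoter of vit-5, with no region in any list, held CTGATAA at -127 to -121 and TGTCAAT at 2 places, and vit-1, with no optimal peak, held both as well. The elements were thus present with and without a peak. The homeodomain core TAAT was found 1 to 8 times per promoter in the family, fewest at vit-6 and most at vit-4, against a median of 4 over all promoters. A match describes the letters in this stretch and is not evidence of a bound site.

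**Figure D5:**
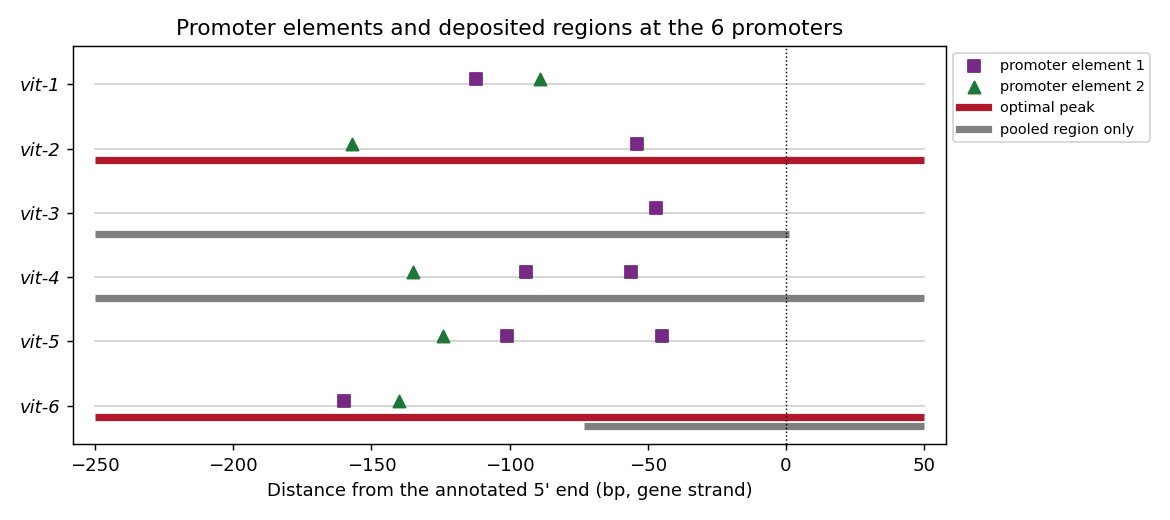
Positions of promoter elements 1 (squares) and 2 (triangles) from 250 bp before to 50 bp after the annotated 5′ end of the 6 genes, with the optimal peaks (red) and other pooled regions (grey) that reach into this stretch. Elements stand under the peaks of vit-2 and vit-6 and also at vit-1 and vit-5, where no bar is drawn.

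Optimal summits were also counted at genes known to act on the family. Of 12 regulators of yolk gene expression, 8 (66.7%) had an optimal summit in the same kind of window, against 28.9% of all genes. Their median length was 10770 bp, against 2027 bp for all genes, so their windows were longer. With windows that end 200 bp after the 5′ end, 6 of the 12 had an optimal summit, against 24.9% of all genes. The part of length in these shares was not tested. The strongest were daf-16, which encodes the FOXO factor of insulin signalling, with 8 summits and rank 424 for the best, and pqm-1, which encodes a zinc finger factor, with 3 and rank 487. Both of these best peaks lay inside the gene, in an intron 1666 bp after the 5′ end of daf-16 and in coding exon 5 of pqm-1, at 1427 bp. The GATA factor gene elt-2 had 2 optimal summits. The stronger lay 415 bp upstream at rank 740, with 2.17 ± 0.41 times the median optimal peak (SD, n = 2). The gene ceh-60, for a PBX-type homeodomain protein, had 2, the stronger 663 bp upstream at rank 1076 and 1.83 ± 0.51 (SD, n = 2). The best peaks of elt-2 and ceh-60 were thus stronger in the pooled list than that of vit-2. For elt-2 this held in both replicates. For ceh-60 it held in replicate 2 (82.7 against 42.7 at vit-2) but not in replicate 1 (43.1 against 46.4). Optimal summits were also in the windows of unc-62, lin-29, sgk-1 and daf-2. The best peak of unc-62 was uneven, with a signal of 11.7 in replicate 1 and 33.8 in replicate 2 (relative signal 0.65 ± 0.35, SD, n = 2). No optimal summit was found for elt-7, mab-3, rict-1 and lrp-2, and those of rict-1 and lrp-2 held no pooled region either.

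Of 8 genes for the loading, uptake and breakdown of yolk, 5 (62.5%) had an optimal summit, against 28.9% of all genes. Their median length was 6026.5 bp, against 2027 bp for all genes. With windows that end 200 bp after the 5′ end, 4 of the 8 had an optimal summit, against 24.9% of all genes. The part of length was not tested here either. The strongest were rme-4, a gene of yolk endocytosis, with its best peak in an intron at rank 298 and 2.89 ± 0.46 (SD, n = 2), and cpl-1, the cathepsin L gene, with its best peak 242 bp upstream at rank 1178 and 1.77 ± 0.01 (SD, n = 2). They were followed by rme-1, a gene of endocytic recycling, at rank 1715, and the clathrin heavy chain gene chc-1 at rank 3723. At dsc-4, which encodes the microsomal triglyceride transfer protein that loads lipid, the best summit was 9 bp upstream at rank 5536. That peak was uneven, with a signal of 12.5 in replicate 1 and 32.5 in replicate 2 (relative signal 0.64 ± 0.31, SD, n = 2). The yolk receptor gene rme-2, and rme-8, held no pooled region in the window, and rme-6 held pooled regions only. No test was made of these shares, since the lists were chosen with results of these data known.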

How the data were processed

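Per the labels, chromatin of whole L4 hermaphrodites was fragmented by sonication and recovered with an antibody against GFP. The deposited ce11 lists have no header and hold 10 columns per region. The deposited signal (column 7) and the deposited -log10 q value (column 9) come from the authors' peak caller against 1 control alignment shared by both replicates, per the text deposited beside the lists. Ranking did not use the -log10 q value, since 9360 pooled regions share its highest value. No source used here names the aligner, the peak caller or the reproducibility threshold. The control was not analysed here. The ce10 lists were left out because no coordinates were converted. In 1-based terms the summit is column 2 plus column 10 plus 1.

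Genes came from Ensembl release 115 and sequence from the RefSeq genome, both WBcel235, and all regions lie within its chromosome lengths. Windows used gene-level ends. Replicate regions were matched within 100 bp of a pooled summit. Stretches of 50 bases were counted over both strands of the genome. Identity is the share of identical columns in a global alignment (Biopython 1.88, match 1, mismatch -1, gap opening -3, gap extension -0.5). Promoters were cut from the genome by annotated 5′ end. The window counting was tested on 200 planted summits. Python 3.11.15, numpy 2.4.6 and pandas 2.3.3 were used. Alternatives covered the window, overlap, the peak set, each replicate alone, the matching distance, the scale and the stretch length.

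The members and gene lists were chosen with earlier results of these data known. The rule named all 6 members, up to 4 genes with the strongest peak and the genes without a peak in each context list, and neighbours in or next to the windows. The genes unc-62, lin-29, sgk-1, daf-2 and dsc-4 were named after their values were seen. No test was run, since there was 1 group.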

Additional observations from a re-analysis of the deposited data

How the results depend on the processing

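Windows that start 1000 or 500 bp upstream, or that end 200 bp after the 5′ end, gave vit-2 and vit-6 as before. The shares of all genes with an optimal summit were 24.7%, 21.5% and 24.9% in the same order. Counting any overlap of a peak region instead of its summit gave 4 optimal peaks in the windows and added vit-1, through the strong peak at spp-14. By that count 30.4% of all genes had an optimal peak. With the stronger part of the optimal list, cut at its median, 1 gene and 1 summit were left (vit-2), with 17.5% of all genes, 5 of the 12 regulators and 3 of the 8 handling genes. With each replicate alone, 1 to 2 genes and 1 to 3 summits were found. Without replicate 1, 7 of the 12 regulators and 5 of the 8 handling genes had a summit (29.2% of all genes). Without replicate 2, 8 and 4 had one (28.7% of all genes). The vit-6 peak was missing without replicate 1, and without replicate 2 a summit 4600 bp after the 5′ end of vit-2 was added. Relative to the median of all regions in a replicate list, the signal was 5.27 at vit-2 and 2.49 at vit-6, because that median is lower. The share of unique stretches over the whole window was 90.8% at vit-1, 90.6% at vit-2, 45.9% at vit-3, 42.6% at vit-4 and 64.8% at vit-5. With 36 bases it was 86%, 85.7%, 42.5%, 39.8% and 58.7% in the same order, and with 100 bases 97.5%, 97.4%, 56%, 51.6% and 80.1%. It stayed at 100% at vit-6 for both. Among the 6 promoters of the family, the number with each motif was the same in the 500 bp upstream. Over all promoters the share there was 9.69% for TGTCAAT, 12.2% for CTGATAA, 43.7% for TGATAA and 99.3% for TAAT. With 2 replicates and no read counts, differences between regions of similar rank cannot be resolved.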
